A study of Mus musculus with 6 samples.

Results

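The endoplasmic reticulum (ER) and secretory pathway genes described here are 61 protein-coding genes of the 25904 in the deposited table, chosen by their symbols alone: the Sec genes of the translocon, the signal peptidase, the COPII coat and the Sec22 family, the Cop genes of the COPI coat, and the Ssr, Spcs, Tmed, Pdia, Srp and Srpr genes. The rule itself uses no measured value. They were measured by RNA sequencing in F9 cells, a mouse teratocarcinoma line that takes on an endoderm-like state when given retinoic acid (RA). Every library came from a line that expressed a short hairpin RNA: shGFP is the control, shCtbp2 is directed at the corepressor Ctbp2, and shRxr at a retinoid X receptor gene that the labels do not name. Each of the 3 lines gave 1 library without treatment (UT) and 1 from cells kept for 48 hours with all-trans RA at 1 µM, all in medium with charcoal-stripped serum. These are 6 groups of 1 library (shGFP_UT, shGFP_RA, shCtbp2_UT, shCtbp2_RA, shRxr_UT and shRxr_RA). The control was also a hairpin line, the labels do not say whether a line is 1 clone or a pool, and no parental line and no repeat of a culture was analysed here.

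Proteins bound for export are caught on the ribosome by the signal recognition particle, threaded through the Sec61 channel into the ER, trimmed by the signal peptidase and folded with the help of protein disulfide isomerases. COPII-coated vesicles, loaded by adaptors and p24 cargo receptors, carry them towards the Golgi, and COPI-coated vesicles bring receptors and escaped residents back. F9 cells given RA are known for starting to secrete basement membrane proteins such as type IV collagen and laminin, so these genes are the machinery through which that cargo passes.

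Levels are given as normalised reads, that is reads per 10000000 reads counted in genes of a library. Between 9955808 and 13322506 reads per library stood behind them. The knock-downs matched their labels: untreated and in RA, Ctbp2 had 1811 and 701 normalised reads in the shGFP line but 210 and 55.4 in the shCtbp2 line, and Rxra had 520 and 805 in the shGFP line but 73.7 and 82.4 in the shRxr line. Markers of the F9 state were present, among them Pou5f1 at 8530 to 26190 normalised reads. The 9 tested markers of primitive and parietal endoderm, Gata6 and Gata4 among them, all rose with RA. Their list summed to 3304 to 4674 normalised reads in the untreated libraries and to 16892, 12310 and 8171 in RA in shGFP, shCtbp2 and shRxr. Of the 10 pluripotency markers 5 fell, and the list summed to 57047 to 58707 untreated and to 25391, 53271 and 42236 in RA. In the shCtbp2 line the sum held markers of opposite direction. Pou5f1 went from 18520 to 26190 there and Dppa5a from 4940 to 8488, while every other marker of the list was lower in RA, among them Zfp42 (8730 to 2129). Of the 3 tested visceral endoderm markers Cubn rose, Hnf4a fell and Amn was not called, while Afp, too scarce to test, stood at 0 to 0.805. Untreated and in RA their list summed to 161 and 319 (shGFP), 237 and 265 (shCtbp2) and 136 and 219 (shRxr). Of fibroblast markers Postn was at 0 in every library and Col3a1 and Dcn stood at no more than 2.01, although Pdgfrb and Fbln1 rose and Thy1 fell, and the list summed to 633 to 831 untreated and 1714 to 2587 in RA. Blood markers summed to 74.4 to 137, of which Cd68, which was not called, made up 69.5 to 131, and Ptprc was at 0 in 5 of the 6 libraries. The part of these cell states in the changes of the secretory genes was not tested. In bulk RNA a change in the make-up of a culture and a change of RNA per cell cannot be told apart.

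The 61 genes together took 0.709% of the reads in shGFP_UT and 0.849% in shGFP_RA, 0.734% and 0.805% in the shCtbp2 line, and 0.731% and 0.822% in the shRxr line. All 3 RA libraries stood above all 3 untreated ones. Divided by exon length, the highest levels belonged to folding enzymes and to a translocon partner: Pdia3, which works on glycoproteins with calnexin and calreticulin, had 1611 normalised reads per kilobase on average over the 6 libraries, Ssr2 of the translocon-associated protein (TRAP) complex 1382, Pdia4 1144 and Pdia6 1009. Ssr3, Srp14 and Srp68 followed at 730, 705 and 683. The coats lay lower per kilobase, with Cope, Copb2 and Copa of COPI at 575, 547 and 531 and Sec31a and Sec13, which form the COPII cage, at 465 and 464. Some second copies of a subunit were scarce: Copz2 had 33.4 per kilobase against 509 for Copz1, Sec61a2 70.0 against 444 for Sec61a1, and Sec31b 6.35 against 465 for Sec31a. Others were not by this measure: Copg2 had 177 against 232 for Copg, and Sec23b 205 against 261 for Sec23a. The exon length counts all annotated exons of a gene, 11011 bases for Copg and 5121 for Copg2. Undivided, Copg had a mean of 2549 normalised reads and Copg2 one of 905, while Sec23a had 1263 and Sec23b 1291. Of the 61 genes 58 had a mean of at least 20 normalised reads and were tested. Pdia2 (0 to 3.22), Sec16b (0 to 2.51) and Tmed6 (0 to 1.61) fell below that minimum.

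RA raised 3 of the 58 tested genes over the 3 lines and lowered 0 at an adjusted p under 0.05 (limma, with line and treatment as terms, so that the lines stand in as replicates of the treatment). These were the COPI subunit gene Copz2, the p24 receptor gene Tmed3 and the disulfide isomerase gene Pdia5. Over all 12332 genes tested, RA raised 10.8% and lowered 4.63%, so the share of secretory genes called (5.17% and 0%) was below that background on both sides as deposited, which did not hold for raised genes once GC content was corrected for, as given below. At an unadjusted p under 0.05 the counts were 8 higher and 1 lower, against 18.5% and 12.4% of all genes. A limma voom fit on whole reads recovered from the values gave the same counts of calls, 3 and 0. The median RA change of the 58 genes was 0.22 on the log2 scale, against 0.07 over all genes. In 22 of the 58 (37.9%, against 24.1% of all genes) all 3 RA libraries stood above all 3 untreated ones, and in 2 (3.45%, against 13.9%), Sec16a and Srp19, all stood below. The change was upward in every line for 26 genes (44.8%, against 33.3%) and downward in every line for 4 (6.9%, against 19.9%), Sec16a, Sec61a2, Srp9 and Srp19. The changes were thus mostly small and upward. The labels name no separate cultures, so the p-values carry no spread between repeat cultures. Their error joins the differences in response between these libraries of the 3 lines with a variance that limma estimates over all tested genes. That variance had 11.2 prior degrees of freedom, against 2 residual ones. A gene without a call can thus have responded alike in the 3 lines, as Sec22c did (given below).

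**Figure D1:**
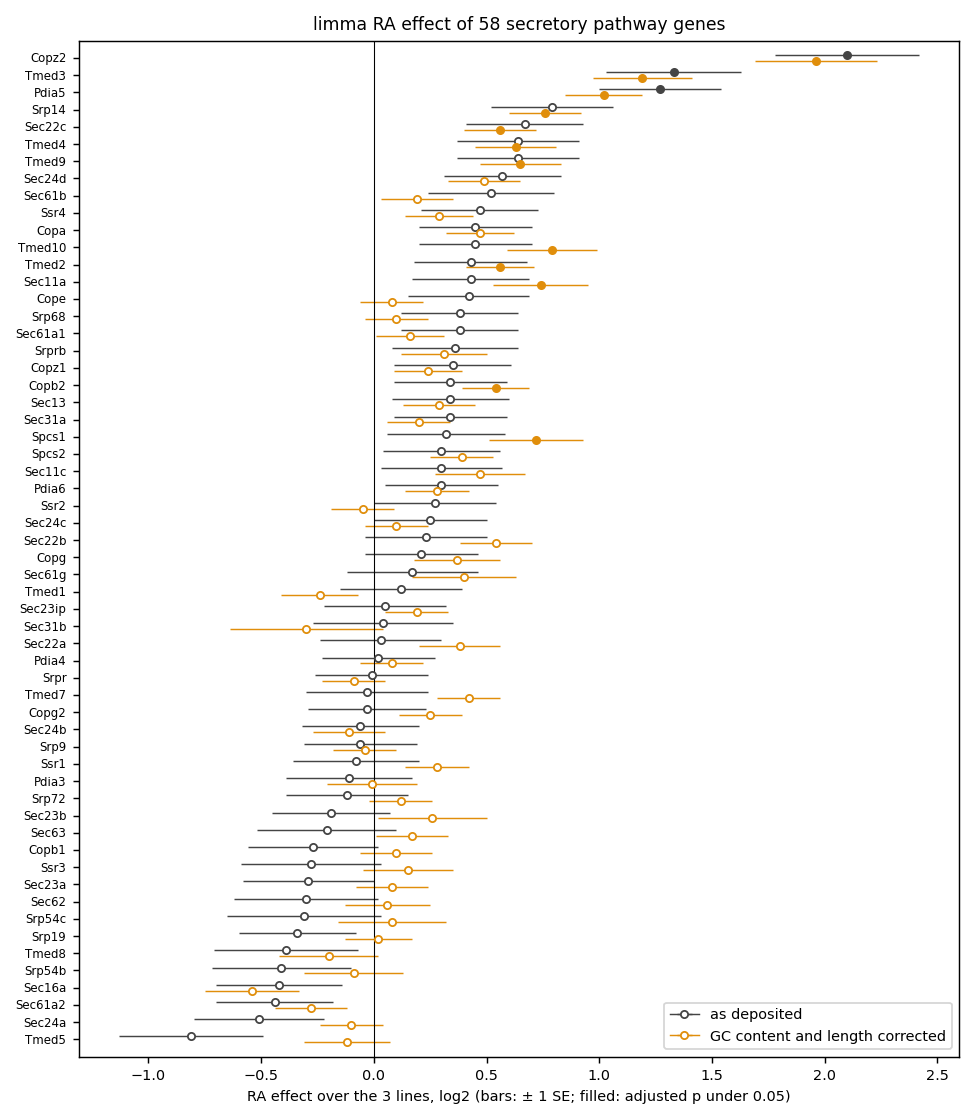
RA effect over the 3 lines for the 58 tested genes, in log2 units with bars of ± 1 standard error, as deposited (grey) and corrected for GC content and length (orange); filled points have an adjusted p under 0.05. Copz2, Tmed3 and Pdia5 stand at 2.10, 1.33 and 1.27 as deposited, apart from the rest, and 12 points are filled after the correction.

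Copz2 encodes the second isoform of the zeta subunit of COPI. Its level was 11.3 normalised reads in shGFP_UT and 131 in shGFP_RA, 38.9 and 181 in the shCtbp2 line, and 15.1 and 65.3 in the shRxr line. Each RA library was above every untreated one, the shCtbp2 line was highest at both treatments, and the shRxr line was lowest in RA. The ratio of RA to untreated was 11.6 in shGFP (95% counting interval 6.76 to 21.8), 4.66 in shCtbp2 (3.37 to 6.56) and 4.33 in shRxr (2.54 to 7.76). In the fit Copz2 rose by 2.10 log2 units (SE 0.32, adjusted p 0.00086, limma), and it kept its call without any single library or line. Its paralog Copz1, the common zeta subunit, went from 1623 to 1859 in shGFP, from 1676 to 2825 in shCtbp2 and from 1540 to 1652 in shRxr, with a fitted change of 0.35 (SE 0.26, adjusted p 0.39). The gene lies at chromosome 11, 96711184 to 96722517, and Copz1 at chromosome 15, 103103342 to 103130293, both in the mm9 coordinates of the deposited table, as are all gene positions below.

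Pdia5 (chromosome 16, 35397399 to 35490959), a less studied disulfide isomerase of the ER lumen, had 189 and 555 normalised reads in the shGFP line, untreated and in RA, the order used from here on, 225 and 628 in the shCtbp2 line and 217 and 407 in the shRxr line. The treatments did not overlap, and the shRxr line was lowest of the RA libraries. RA levels were 2.93 times the untreated ones in shGFP (2.53 to 3.41), 2.79 times in shCtbp2 (2.42 to 3.23) and 1.88 times in shRxr (1.60 to 2.20). The fitted change was 1.27 (SE 0.27, adjusted p 0.0071, limma). Tmed3 (chromosome 9, 89594041 to 89599881), a gamma-class p24 receptor, stood at 85.4 and 273 (shGFP), 116 and 430 (shCtbp2) and 125 and 197 (shRxr). Again each RA library was above every untreated one, and the ratio was smallest in the shRxr line: 1.58 (1.27 to 1.97), against 3.19 (2.56 to 4.0) in shGFP and 3.71 (3.06 to 4.52) in shCtbp2. The fitted change was 1.33 (SE 0.30, adjusted p 0.010, limma). Both of these calls could be lost by leaving out 1 library. Without a shGFP library Pdia5 had an adjusted p of 0.33 to 0.35 and Tmed3 one of 0.27 to 0.29 (limma). Without a shCtbp2 library Tmed3 had one of 0.078 to 0.082. Such fits also have fewer residual degrees of freedom, and the counting intervals of both genes lay above 1 in every line. The adjusted p of the difference in RA response between the shRxr line and the other 2 lines was 0.90 for Copz2, 0.91 for Pdia5 and 0.77 for Tmed3, so a smaller response there was not shown.

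**Figure D2:**
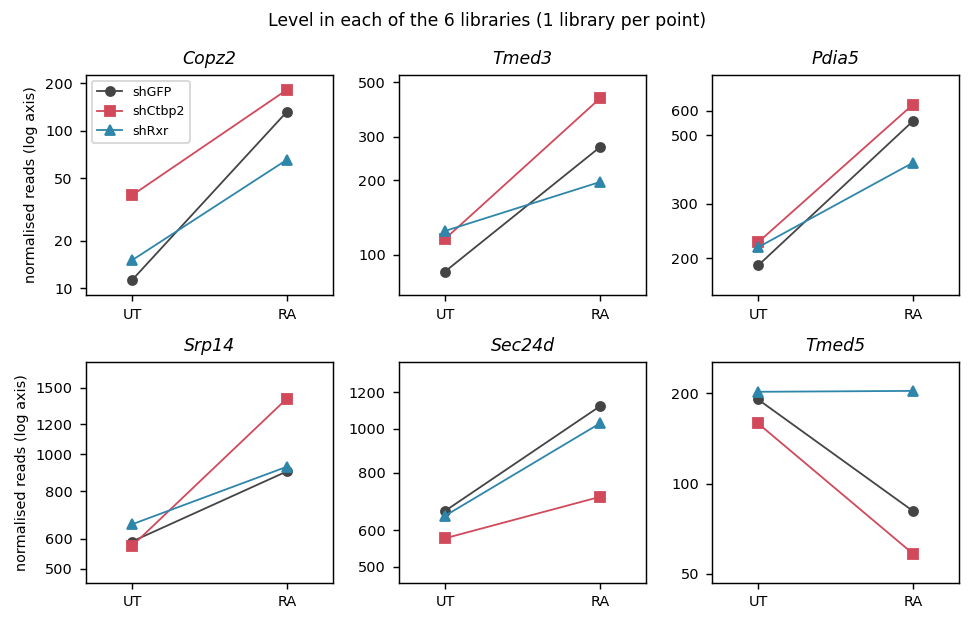
Level of 6 genes in each library, in normalised reads on log axes, with untreated (UT) and RA libraries of a line joined; each point is 1 library. Copz2, Tmed3, Pdia5, Srp14 and Sec24d are higher in RA in every line, and Tmed5 is lower in shGFP and shCtbp2 but level in shRxr (203 and 204).

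The promoters of these 3 genes are shown because they were the genes called for RA. Promoter sequences are from RefSeq (GRCm38.p6), run from 250 bases before to 50 bases after the annotated start, and matched 53 of the 61 genes. Copg, Sec11c, Sec61a1, Srp19, Srp68, Ssr2, Tmed2 and Tmed7 had no entry. Each is written 5′ to 3′ on the gene's strand, and the capitals mark GACGTGG or its reverse complement.
Copz2 promoter (chr11:96849626-96849925, plus strand): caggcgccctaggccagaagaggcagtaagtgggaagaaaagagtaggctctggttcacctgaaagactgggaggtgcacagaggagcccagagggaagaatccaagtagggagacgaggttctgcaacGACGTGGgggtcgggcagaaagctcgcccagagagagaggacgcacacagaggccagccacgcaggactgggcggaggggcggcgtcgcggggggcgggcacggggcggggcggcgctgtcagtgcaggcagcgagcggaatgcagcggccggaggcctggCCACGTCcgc
Pdia5 promoter (chr16:35490824-35491123, minus strand): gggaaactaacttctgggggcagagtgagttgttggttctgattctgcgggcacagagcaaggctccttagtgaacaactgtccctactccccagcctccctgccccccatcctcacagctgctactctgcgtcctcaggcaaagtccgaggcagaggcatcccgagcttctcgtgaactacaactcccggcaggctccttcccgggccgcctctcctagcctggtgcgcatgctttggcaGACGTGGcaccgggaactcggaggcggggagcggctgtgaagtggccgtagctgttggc
Tmed3 promoter (chr9:89704994-89705293, minus strand): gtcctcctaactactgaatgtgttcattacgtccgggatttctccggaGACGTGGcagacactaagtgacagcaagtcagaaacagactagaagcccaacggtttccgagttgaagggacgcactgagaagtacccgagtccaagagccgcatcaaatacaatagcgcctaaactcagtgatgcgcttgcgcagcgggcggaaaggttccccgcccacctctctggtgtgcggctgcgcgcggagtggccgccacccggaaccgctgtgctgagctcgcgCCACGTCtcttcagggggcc
The letters GACGTGG were picked out after these 3 promoters had been read, so their presence in all 3 is how they were chosen and not a result. Copz2 and Tmed3 hold 2 matches each and Pdia5 holds 1, which begins 9 bases before the start. Counted on both strands, the letters were in the promoters of 14 of the 53 genes (26.4%), against 3.18% of 17492 protein-coding genes and 2.73% of all 27025 genes with a promoter of this length. That share includes the 3 promoters that supplied the letters. Without them it was 11 of 50 (22%). The 11 genes were Copb1, Copb2, Copz1, Pdia6, Sec13, Sec16b, Sec23a, Sec24c, Sec24d, Sec63 and Ssr1. Of these Sec16b was below the minimum for testing, and the RA changes of the rest ran from -0.29 (Sec23a) to 0.57 (Sec24d), with 0 called as deposited and 1, Copb2, called with the GC correction described below.

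The other motifs searched, on both strands, were those of the unfolded protein response and of RA receptors. The ER stress element (ERSE: CCAAT and, 9 bases on, CCACG) was in 1 of the 53 promoters, Pdia6 (1.89%, against 0.166% of protein-coding genes). The core of the unfolded protein response element (UPRE), TGACGTG, which shares 6 letters with GACGTGG and can overlap it, was in 6 (11.3%, against 2.49%): Copb1, Copb2, Sec16b, Sec23a, Sec24d and Srpr. The cyclic AMP response element (CRE), TGACGTCA, was in 1, Cope (1.89%, against 2.54%). The RA receptor element of direct repeats (DR5: AGGTCA, 5 bases and AGGTCA again) was in 0, against 0.00572%. Only this exact spelling was searched, and 1 of 17492 protein-coding genes held it, so the 0 carries no information about these genes. Variant spellings and sites outside these promoters were not searched. The matches are shown in GRCm38.p6 with 25 bases on either side and the matched letters in capitals, for 6 genes, so that their setting in promoters of coat, receptor and isomerase genes can be compared. The matches of Sec23a, which lies after the start, and of the untested Sec16b are not shown.
Pdia6 (chr12:17266466-17266534, plus strand): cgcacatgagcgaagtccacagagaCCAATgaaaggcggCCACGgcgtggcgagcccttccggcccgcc
Copb1 (chr7:114254676-114254732, minus strand): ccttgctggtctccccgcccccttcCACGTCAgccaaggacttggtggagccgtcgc
Copb2 (chr9:98563700-98563756, plus strand): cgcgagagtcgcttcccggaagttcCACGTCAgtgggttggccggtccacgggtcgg
Sec24d (chr3:123267445-123267501, plus strand): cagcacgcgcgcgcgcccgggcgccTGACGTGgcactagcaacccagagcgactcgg
Srpr (chr9:35211165-35211221, plus strand): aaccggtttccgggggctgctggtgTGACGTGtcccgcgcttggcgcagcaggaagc
Cope (chr8:70302532-70302589, plus strand): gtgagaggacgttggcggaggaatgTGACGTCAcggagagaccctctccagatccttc
Pdia6 holds the ERSE, Cope the CRE, and the other 4 the UPRE core, which in Copb1 and Copb2 is on the opposite strand. As deposited, neither RA nor a knock-down was called for any of the 6 genes, and a match is a description of the letters only.

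At the entry to the pathway, the 9 tested genes of the signal recognition particle and its receptor had a median RA change of -0.06, and 0 of them was called. Srp14, which caps the particle with Srp9 and pauses translation, had the largest change of them. It went from 590 to 902 normalised reads in shGFP, from 574 to 1403 in shCtbp2 and from 655 to 928 in shRxr. All RA libraries stood above all untreated ones, and the fitted change was 0.79 (SE 0.27, adjusted p 0.064, limma). Its partner Srp9 did not follow: it stood at 669 and 649, 660 and 609, and 689 and 682 in the same order. Srp19, which helps assemble the particle, was lower in RA in every line (653 and 538, 571 and 370, 625 and 569), with a fitted change of -0.34 (SE 0.26, adjusted p 0.39). Srp54b and Srp54c, near-identical copies of the gene for the subunit that binds the signal peptide, were scarce, and how reads were split between such copies is not given, so their values are uncertain. Srp54b ranged from 22.8 to 64.3, and Srp54c stood at 69.3 and 41.3 (shGFP), 47.2 and 20.8 (shCtbp2) and 51.9 and 82.4 (shRxr), lower in RA in the first 2 lines and higher in shRxr. Srp54a was not analysed here.

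At the channel, the paralogs Sec61a1 and Sec61a2 had RA changes of opposite sign. Sec61a1, the main pore subunit, stood at 2527 and 3204 (shGFP), 2590 and 4373 (shCtbp2) and 2594 and 2664 (shRxr), a fitted change of 0.38 (SE 0.26, adjusted p 0.35). Sec61a2 stood at 406 and 280, 299 and 198, and 399 and 338, a fitted change of -0.44 (SE 0.26, adjusted p 0.28). The RA libraries of Sec61a1 lay above all untreated ones by a small margin in shRxr, those of Sec61a2 overlapped the untreated range, and neither passed the test. Sec61b, the small subunit that contacts the ribosome, stood at 320 and 485, 316 and 605, and 377 and 397 (0.52, SE 0.28, adjusted p 0.22). Sec62 and Sec63, which serve post-translational import, differed between the lines in the sign of their response. Sec62 stood at 830 and 688 (shGFP), 839 and 369 (shCtbp2) and 744 and 1082 (shRxr). Sec63 stood at 683 and 745, 660 and 309, and 673 and 848. In both, shCtbp2_RA was the lowest library and shRxr_RA the highest.

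Each of the 4 TRAP subunits, which sit beside the channel, had its lowest or its highest level in shCtbp2_RA. Ssr1 stood at 2143 and 2518 (shGFP), 2259 and 1400 (shCtbp2) and 2310 and 2672 (shRxr). Ssr3 stood at 3210 and 3443, 3196 and 1401, and 3216 and 3807. Both were lowest in shCtbp2_RA, while Ssr2 was highest there (2251 and 2367, 2180 and 3821, 2476 and 2358), and so was Ssr4 (458 and 584, 484 and 859, 453 and 535). Subunits of 1 complex thus had differences of opposite sign in that line. Ssr1 and Ssr3 have transcripts of 44.6% and 40.8% GC, Ssr2 and Ssr4 of 55.7% and 51.6%.

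All 4 tested signal peptidase genes were higher in RA in every line, with small changes. Sec11a, a catalytic subunit, stood at 399 and 520, 417 and 639, and 346 and 430, without overlap between the treatments, and had a fitted difference of 0.43 (SE 0.26, adjusted p 0.28). The second catalytic subunit gene Sec11c stood at 163 to 171 untreated and 206 to 212 in RA, also without overlap. The accessory subunits Spcs1 and Spcs2 had fitted differences of 0.32 and 0.30 (adjusted p 0.44 and 0.45). Of the 4 genes 0 was called as deposited and 2, Sec11a and Spcs1, were called once the libraries had been corrected for GC content and length, as described below. Spcs3 was not analysed here.

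Of the disulfide isomerases only Pdia5 was called. Pdia6 stood at 3245 and 4072 (shGFP), 3390 and 4665 (shCtbp2) and 3510 and 3799 (shRxr), with all RA libraries above all untreated ones (0.30, SE 0.25, adjusted p 0.45). Pdia3 stood at 4774 and 5771, 5663 and 3286, and 5059 and 5787, with shCtbp2_RA lowest, and was not called (-0.11, SE 0.28, adjusted p 0.83). Pdia4 stood at 2388 to 2964 in the 6 libraries. Summed over the 4 tested genes the family stood at 10829 and 13356 (shGFP), 11868 and 10967 (shCtbp2) and 11727 and 12956 (shRxr).

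The COPII genes, which build the vesicles that leave the ER, had a median RA change of 0.04 over 11 tested genes and 0 calls. The 4 Sec24 paralogs, which pick cargo, had RA differences of both signs. Sec24d stood at 661 and 1118 (shGFP), 577 and 710 (shCtbp2) and 645 and 1026 (shRxr). Every RA library was above every untreated one, and the fitted change was 0.57 (SE 0.26, adjusted p 0.16, limma). Sec24c stood at 1716 and 2257, 1735 and 2237, and 1742 and 1718, and had a fitted difference of 0.25 (SE 0.25, adjusted p 0.54). Sec24a went the other way in shGFP (1130 and 872) and shCtbp2 (965 and 410) but not in shRxr (1076 and 1123), with a fitted change of -0.51 (SE 0.29, adjusted p 0.26). Sec24b stood at 1179 and 1389, 1072 and 799, and 1279 and 1271, a fitted change of -0.06 (SE 0.26, adjusted p 0.89) that was 0.11 without the shCtbp2 line. Sec16a, the scaffold of ER exit sites, stood at 2423 and 2252, 2472 and 1177, and 2297 and 2140. It was lower in RA in every line, by the most in shCtbp2, and had a fitted difference of -0.42 (SE 0.28, adjusted p 0.33). The cage genes Sec13 and Sec31a were higher in RA in every line and had a fitted difference of 0.34 each. Sec23a and Sec23b, which switch off the GTPase Sar1, had a fitted difference of -0.29 and -0.19.

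The p24 receptors had a median RA change of 0.43 over 9 tested genes, the highest of the families as deposited though not with the GC correction (0.56, against 0.60 for signal peptidase), with 1 call, and 5 of the 9 were higher in RA in every line. Tmed9 and Tmed4, of the alpha class, stood at 1040 and 1635, 1004 and 2087, and 1087 and 1267 (Tmed9) and at 329 and 681, 357 and 563, and 374 and 446 (Tmed4). Both had fitted differences of 0.64 (SE 0.27 each, adjusted p 0.12 and 0.13) and in both the treatments did not overlap. Tmed10 and Tmed2, of the delta and beta classes, had fitted differences of 0.45 and 0.43 (adjusted p 0.24 and 0.27), again without overlap. The gamma class held both extremes: Tmed3 rose, while Tmed5 had the lowest RA change of all 58 genes. Tmed5 stood at 191 and 81.1 (shGFP), 159 and 58.4 (shCtbp2) and 203 and 204 (shRxr), a fitted change of -0.81 (SE 0.32, adjusted p 0.10, limma). Without a shRxr library its change was -1.22 and passed (adjusted p 0.0060 to 0.0062), and it also passed with libraries scaled by the median of ratios (-0.88, adjusted p 0.049). Its transcript has the lowest GC content of the tested genes, 35.0%, and after the correction for GC content its change was -0.12 (adjusted p 0.66). The other gamma members, Tmed1 (290 and 321, 347 and 463, 300 and 261) and Tmed7 (1198 and 1243, 1182 and 799, 1161 and 1546), had a fitted difference of 0.12 and -0.03. Tmed8 was grouped with these genes because of its symbol and is given no class here. It stood at 763 and 697, 629 and 237, and 655 and 819, so shCtbp2_RA was lowest and shRxr_RA highest.

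Of the 8 COPI genes 6 were higher in RA in every line, with a median change of 0.34 and 1 call, Copz2. Copa, the largest coat subunit, stood at 4088 and 6066 (shGFP), 4349 and 6009 (shCtbp2) and 4228 and 5298 (shRxr) (0.45, SE 0.25, adjusted p 0.24). Copb2 stood at 2983 and 4197, 3087 and 3464, and 3112 and 3983 (0.34, SE 0.25, adjusted p 0.39). Both had all RA libraries above all untreated ones. The gamma paralogs Copg (2295 and 2687, 2384 and 3090, 2389 and 2449) and Copg2 (830 and 906, 1031 and 790, 887 and 987) had a fitted difference of 0.21 and -0.03, and Copg2 by 0.14 without the shCtbp2 line. Copb1 was lowest in shCtbp2_RA (880, against 1671 to 2017 elsewhere) and Cope, the epsilon subunit, was highest there (1518 and 1807, 1749 and 3405, 1517 and 1579). The Sec22 family, of which Sec22b is the SNARE of ER and Golgi vesicles, had 0 calls in 3 genes. Sec22c had similar ratios in each line, with RA levels 1.67, 1.57 and 1.62 times the untreated ones (205 and 343, 145 and 227, 246 and 400), and by 0.67 in the fit (SE 0.26, adjusted p 0.11). Its RA and untreated libraries overlapped across lines, since the shCtbp2 line was low at both treatments.

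The size of the RA response was then compared within each line, with no test, counting changes of at least 1.5-fold on the log2(normalised reads + 10) scale. In shGFP 11 of the 58 genes were higher and 2 lower (24.7% and 14.8% of all genes), in shCtbp2 17 were higher and 15 lower (30.3% and 30.7%), and in shRxr 5 were higher and 0 lower (13.7% and 4.32%). The 5 of the shRxr line, Copz2, Pdia5, Sec22c, Sec24d and Tmed3, were also among the 11 of shGFP. In shGFP and shRxr the counts of the secretory genes were below those shares of all genes in both directions. In shCtbp2 29.3% of them were higher, near the 30.3% of all genes, and 25.9% were lower, against 30.7%. The shares of all genes were not matched for level. The median changes were 0.23, 0.23 and 0.20 in shGFP, shCtbp2 and shRxr, against 0.12, 0.07 and 0.09 over all genes. With libraries brought to equal upper quartiles the shGFP split was 5 higher and 4 lower, with the median over all genes at -0.04 instead of 0.12, and with the median of ratios it was 6 and 3. In shRxr both scalings left 2 higher and 0 lower, with the median over all genes at -0.02 and -0.03. Shares of all genes past 1.5-fold were counted for the values as deposited only. At 2-fold the counts were 4 higher and 1 lower in shGFP (13.4% and 7.07% of all genes), 5 and 9 in shCtbp2 (15.1% and 19.3%), and 1 and 0 in shRxr (5.26% and 1.46%). Summed by family, RA levels were above untreated ones in every line as deposited for 6 of the 9 families. The COPI, signal peptidase and p24 genes had ratios of 1.17 to 1.28, 1.18 to 1.4 and 1.23 to 1.37, and they stayed above 1 with equal upper quartiles (1.09 to 1.36, 1.09 to 1.33 and 1.14 to 1.34) and with the median of ratios (1.08 to 1.29, 1.08 to 1.29 and 1.13 to 1.27). The Sec22 and Sec61 families had ratios of 1.02 to 1.38 (Sec22) and at least 1.11 (Sec61) as deposited and stayed above 1 under both scalings, down to 1.02 and 1.01. The signal recognition particle family had ratios of 1.08 to 1.12 as deposited but 0.967 in shGFP with equal upper quartiles. The COPII sum had ratios of 1.11, 0.989 and 1.05 in shGFP, shCtbp2 and shRxr as deposited and of 0.992, 1.05 and 0.977 with equal upper quartiles, so its direction turned with the scaling in each line.

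**Figure D3:**
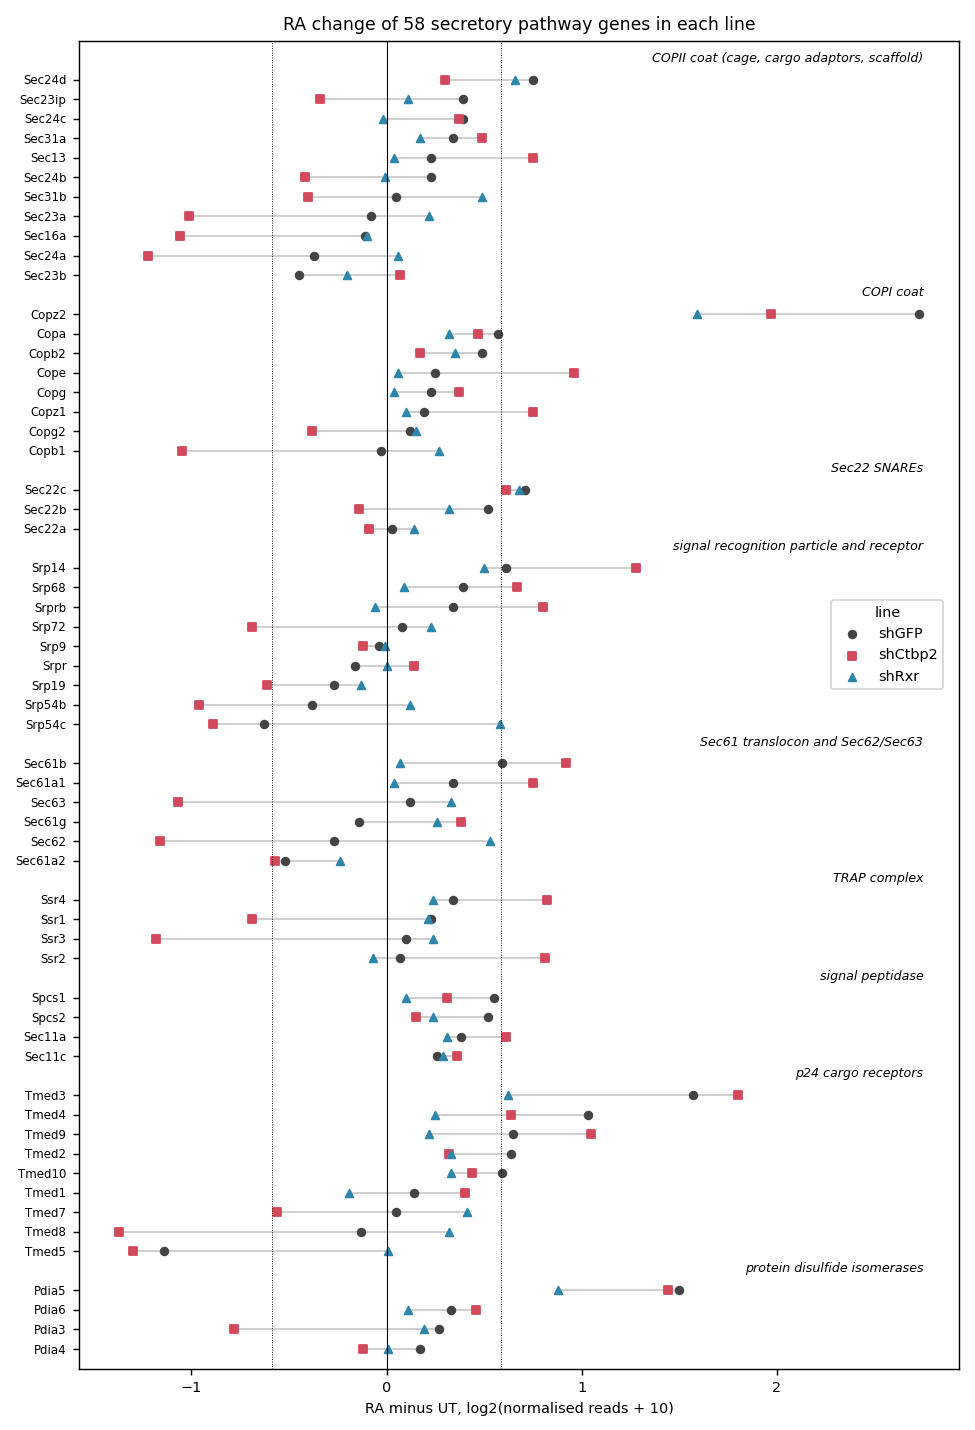
RA minus untreated in each line for the 58 tested genes, grouped by role, on the log2(normalised reads + 10) scale; each point compares 2 libraries and dotted lines mark 1.5-fold. The shCtbp2 points run from -1.37 (Tmed8) to 1.97 (Copz2), with 17 genes past the upper and 15 past the lower line, against 5 and 0 in shRxr.

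In the shCtbp2 line the sign of the change went with the GC content of the transcript. Among the 29 tested genes with a GC content of at most 47.7%, the median of all 58, 9 were higher and 20 lower in RA, with a median of -0.57. Among the other 29, 24 were higher and 5 lower, with a median of 0.64. The corresponding medians were 0.08 and 0.34 in shGFP and 0.24 and 0.10 in shRxr. Over the 58 genes Spearman's rho between GC content and RA change was 0.65 in shCtbp2, 0.45 in shGFP and -0.11 in shRxr, and over 12133 genes with a known GC content it was 0.62, 0.37 and -0.06. These correlations run across genes of the same 2 libraries, and genes are not independent replicates. The secretory genes thus followed all genes in this. With 1 library per group, a difference between libraries that depends on GC content and a response of the line cannot be told apart.

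**Figure D4:**
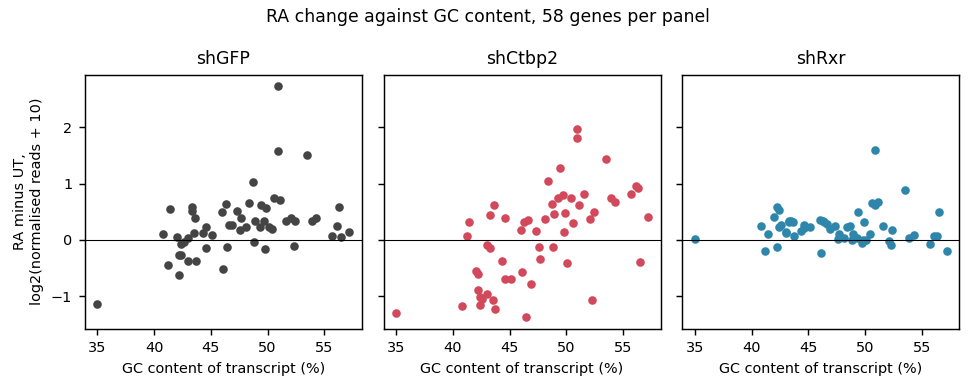
RA change of the 58 tested genes, on the log2(normalised reads + 10) scale, against the GC content of their transcripts in percent, with 1 panel per line. The points climb from lower left to upper right in shCtbp2 (Spearman's rho 0.65), less so in shGFP (0.45) and not in shRxr (-0.11).

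With each library corrected for GC content and transcript length over all genes, 12 secretory genes were called higher in RA and 0 lower, 20.7% and 0% of the 58, where 14.2% of all genes were higher and 8.08% lower. To Copz2 (1.96, adjusted p 0.0038), Tmed3 (1.19, 0.0090) and Pdia5 (1.02, 0.0070) it added Srp14, Sec22c, Tmed4, Tmed9, Tmed10, Tmed2, Sec11a, Spcs1 and Copb2, with changes of 0.54 (Copb2) to 0.79 (Tmed10) and adjusted p of 0.014 (Srp14) to 0.046 (Spcs1, all limma). Of the 12 genes 5 encode p24 receptors, 2 COPI subunits and 2 signal peptidase subunits. The correction also turned the direction of Copg2 (0.25), Tmed1 (-0.24) and Tmed7 (0.42), of which 0 were called in either fit. The correction also takes out any response of the cells that goes with GC content, and which fit is nearer to the cells was not tested.

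Between the lines, limma over both treatments called 0 of the 58 genes for shCtbp2 against shGFP, where 0.105% of all genes were raised and 0.0405% lowered, and 0 for shRxr, where 0% were raised and 0.00811% lowered. At an unadjusted p under 0.05 there were 0 higher genes and 1 lower gene for shCtbp2 (2.56% and 6.28% of all genes), Tmed8 (-0.90, SE 0.39, adjusted p 0.54), and 0 and 0 for shRxr (0.592% and 0.641%). The voom fit called 0 for either line. Leaving out shCtbp2_UT leaves shCtbp2_RA alone in its arm, so calls from that fit are not given. With single libraries left out, the shCtbp2 difference of Tmed8 ran from -1.63 to -0.16. The terms for a different RA response in a line also called 0 genes (0% raised and 0% lowered of all genes for shCtbp2, 0% and 0.0243% for shRxr). At an unadjusted p under 0.05, 12 genes had a more negative response in shCtbp2 (17.1% of all genes) and 2 a more positive one (6.08%), with no adjusted p below 0.16, and 1, Srp54c, had a more positive and 0 a more negative response in shRxr (5.12% and 1.74%). The 12 were Copb1, Pdia3, Sec16a, Sec23a, Sec24a, Sec62, Sec63, Srp72, Ssr1, Ssr3, Tmed7 and Tmed8, from -0.79 (Tmed7) to -1.47 (Tmed8), and the 2 were Cope (0.80) and Ssr2 (0.81).

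Set beside shGFP one treatment at a time, with no test, the untreated knock-down lines were close to the control. In shCtbp2_UT 1 gene was at least 1.5-fold higher, Copz2, and 0 lower (4.44% and 7.38% of all genes), and in shRxr_UT 0 were higher and 0 lower (2.34% and 1.29%). In RA the shCtbp2 line had 6 genes higher and 18 lower (13.3% and 33%), and the shRxr line 3 higher and 2 lower (11.3% and 9.87%). With equal upper quartiles the split of shCtbp2_RA was 16 higher and 9 lower, with the median of the 58 genes at 0.10 instead of -0.14 and that of all genes at 0.04 instead of -0.19, and with the median of ratios it was 11 and 12. The balance of that count thus depended on the scaling, and in shRxr_RA equal upper quartiles left 3 higher and 1 lower. The shares of all genes past 1.5-fold under these scalings were not counted. At 2-fold the counts were 1 higher and 0 lower in shCtbp2_UT (1.39% and 2.34% of all genes), 0 and 5 in shCtbp2_RA (3.18% and 14.8%), 0 and 0 in shRxr_UT (0.389% and 0.0649%), and 1 and 0 in shRxr_RA (3.74% and 2.62%). Both knock-down lines were compared with the same shGFP libraries. Copz2 was 3.45-fold higher in shCtbp2_UT (95% counting interval 1.87 to 6.78) and 1.38-fold higher in shCtbp2_RA (1.11 to 1.71), and in shRxr_RA it was 2.01-fold lower (1.51 to 2.72). At the other end, Tmed8 was 2.95-fold lower in shCtbp2_RA (2.55 to 3.41) and 1.21-fold lower in shCtbp2_UT (1.10 to 1.34). Sec22c was lower in the shCtbp2 line at both treatments, 1.42-fold (1.17 to 1.73) and 1.51-fold (1.29 to 1.78), with a fitted difference of -0.53 (SE 0.32, adjusted p 0.68). Sec61a2 was likewise lower there, 1.36-fold (1.19 to 1.56) and 1.41-fold (1.19 to 1.69), with a fitted difference of -0.46 (SE 0.32, adjusted p 0.69). In the shRxr line Tmed5 was 2.52-fold higher in RA (1.98 to 3.21) but 1.06-fold higher untreated (0.883 to 1.27), and Sec22a was lower at both treatments, 1.37-fold (1.15 to 1.63) and 1.26-fold (1.06 to 1.5). Tmed4 was 1.53-fold lower in shRxr_RA (1.36 to 1.71). Sec22a stood at 260 and 265, 285 and 268, and 190 and 211, with both shRxr libraries below the other 4. Counting differences of any size, 17 genes were higher and 16 lower than shGFP at both treatments in shCtbp2 (29.3% and 27.6%, against 23.3% and 37.5% of all genes), and 10 were higher and 8 lower in shRxr (17.2% and 13.8%, against 18.2% and 24%). Of the 17, Tmed3 was 1.36-fold and 1.58-fold higher in the shCtbp2 line untreated and in RA, Tmed1 1.20-fold and 1.44-fold, and Cope 1.15-fold and 1.88-fold. In the shRxr line Ssr1 was 1.08-fold and 1.06-fold higher, Copg2 1.07-fold and 1.09-fold higher, Sec11a 1.15-fold and 1.21-fold lower, Copz1 1.05-fold and 1.12-fold lower, and Sec16a 1.06-fold and 1.05-fold lower.

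**Figure D5:**
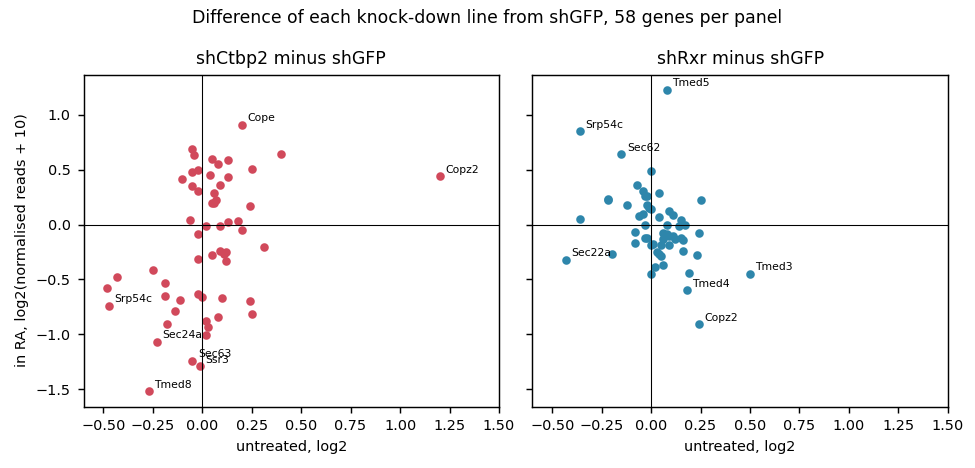
Difference of each knock-down line from shGFP for the 58 tested genes, untreated (horizontal axis) and in RA (vertical axis), in log2(normalised reads + 10) units; each point is 1 gene. Points spread along the vertical axis, most in shCtbp2, and Copz2 at 1.20 is the 1 gene past 1.5-fold untreated.

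Other genes of the pathway, taken from lists with no gene of the symbol rule in them, were counted next. Of 18 cargo and cargo-processing genes of collagen and basement membrane 8 rose and 0 fell over the lines (limma, adjusted p under 0.05; 10.8% and 4.63% of all genes), with a median of 0.74 against 0.07 over all genes, a list that shares Col4a1 and Lamb1 with the endoderm markers. Serpinh1, the collagen chaperone of the ER, stood at 1186 and 7421 (shGFP), 859 and 6829 (shCtbp2) and 1471 and 4138 (shRxr) (2.37, SE 0.30, adjusted p 0.00032). Col4a2, a type IV collagen chain, stood at 1104 and 6184, 1505 and 6797, and 1235 and 3092 (1.99, SE 0.28, adjusted p 0.00059). The list summed to 23832 and 61028 (shGFP), 26594 and 47116 (shCtbp2) and 24024 and 36865 (shRxr). The 58 tested genes of the machinery summed to 70923 and 84935, 73390 and 80529, and 73097 and 82168.

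Of 14 tested sensors and transcription factors of the unfolded protein response 4 rose and 1 fell (10.8% and 4.63% of all genes), with a median of 0.42. Xbp1, whose spliced form drives ER expansion, stood at 730 and 1341 (shGFP), 927 and 2583 (shCtbp2) and 891 and 1286 (shRxr) (0.95, SE 0.27, adjusted p 0.032). Creb3l2, a membrane-bound factor of the secretory pathway, stood at 213 and 670, 315 and 524, and 255 and 432 (1.02, SE 0.28, adjusted p 0.028). Creb3 rose by 1.07 (adjusted p 0.018) and Bhlha15, a factor of secretory cells, by 1.18 (adjusted p 0.046), the latter at 23.4 and 26.1 in shRxr. Mbtps2, a protease that releases such factors from the membrane, fell by 1.14 (adjusted p 0.036) and stood at 789 and 758 in shRxr. With the GC correction 3 rose, Xbp1, Creb3 and Creb3l2, and 0 fell (14.2% and 8.08% of all genes). Creb3l1 stood at 230 and 462 (shGFP), 94.3 and 150 (shCtbp2) and 204 and 193 (shRxr) (0.50, SE 0.29, adjusted p 0.27). Atf4 (0.22, adjusted p 0.61) and Atf6 (-0.04, adjusted p 0.94) were not called, nor was Hspa5, the main ER chaperone and a target of the response, at 7269 and 8304, 7815 and 6209, and 8735 and 9570.

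Among 23 ER chaperones and folding enzymes (median 0.21) 2 rose, Txndc5 (1.01, adjusted p 0.027) and Txndc12 (0.96, adjusted p 0.028), both thioredoxin-like proteins of the lumen, and 0 fell as deposited, though 1 fell under either other scaling. Of 11 oligosaccharyltransferase genes 0 was called as deposited (median 0.45) and 2 rose after the GC correction, Ost4 and Tusc3. Of 32 other ER to Golgi transport genes (median 0.35) 3 rose and 0 fell: Surf4, a cargo receptor (0.95, adjusted p 0.031), Kdelr3, which retrieves ER residents (0.96, adjusted p 0.029), and Arfgap3, which acts on the COPI coat (0.98, adjusted p 0.033). With the GC correction 6 of the 32 transport genes rose, with Arf4, Kdelr1 and Kdelr2 added, and 2 of the 23 chaperones. Over all genes RA raised 10.8% and lowered 4.63% as deposited, and 14.2% and 8.08% with the GC correction. As deposited, the chaperone, oligosaccharyltransferase and transport lists did not exceed the raised share of all genes. For shCtbp2 and shRxr over both treatments 0 genes of these lists were called.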

How the data were processed

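RNA-seq libraries (TruSeq, per the labels' protocols) of 6 samples were used. The submitters' processing notes name TopHat 1.4, HTSeq and the build mm9, with no settings. The deposited table holds log2 values made by the authors, which the numbers show to be log2(reads scaled to 10000000 per library + 1), since all values (100%) came out as whole reads within 1e-06 read. The treatment of multi-mapped reads and strand is not given in the sources used here.

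Values were turned back to normalised reads. The 12332 genes with a mean of at least 20 were tested with limma 3.58.1 (R 4.3.3; trend) on log2(normalised reads + 10), with line and treatment as terms (2 residual degrees of freedom) and Benjamini-Hochberg adjustment over all genes tested. The pseudocount understates changes of low genes. A different RA response of 1 line was a further term, which left 1 degree of freedom. Single pairs of libraries had no test. Their ratios have exact binomial 95% intervals, which cover counting error only. GC content and exon length came from GENCODE M21 and covered 98.4% of the tested genes. The scripts were tested on simulated data.

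Values in every library were given for genes called in a tested contrast, the 8 highest and 4 lowest RA changes, the 4 highest and 4 lowest genes that differed from shGFP in the same direction at both treatments, the 4 largest differences in RA response each way for each knock-down line, and paralogs with RA changes of opposite sign. Other genes were named for their role or their lack of overlap, after their values were seen. Members and gene lists (other secretory pathway genes, cargo, pluripotency, endoderm, fibroblast and blood markers) were chosen with earlier results of these data known. Alternatives were other pseudocounts, minima and scalings, the GC and length correction, voom on recovered reads, a 2-fold limit and leaving out each library or line.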

Additional observations from a re-analysis of the deposited data

Results flagged for a closer look

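In 10 genes the RA change was at least 1.5-fold one way in one line, with the change in another line going the opposite way, and the counting intervals of both ratios excluded 1. Each line is 1 pair of libraries. The share of all tested genes that meets this rule was not counted. Whether the secretory genes differ from other genes in this was therefore not tested. In shCtbp2, 30.7% of all tested genes were at least 1.5-fold lower in RA, against 25.9% of the tested secretory genes. The changes below are on the log2(normalised reads + 10) scale. The differences between pairs of lines were not tested, and 0 of these genes had an adjusted p under 0.05 for a different RA response of the shCtbp2 or the shRxr line (limma).

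Ssr3 of the TRAP complex had a change of -1.18 in shCtbp2, of 0.10 in shGFP and of 0.24 in shRxr. Ssr1 of the same complex had a change of -0.69 in shCtbp2, of 0.23 in shGFP and of 0.21 in shRxr. Sec62 and Sec63, of the channel for post-translational import, had changes of -1.16 and -1.07 in shCtbp2 and of 0.53 and 0.33 in shRxr. Tmed8, grouped here with the p24 receptors, had a change of -1.37 in shCtbp2 and of 0.32 in shRxr. The coat genes Copb1 and Sec23a had changes of -1.05 and -1.01 in shCtbp2 and of 0.27 and 0.22 in shRxr. Pdia3 had a change of -0.78 in shCtbp2, of 0.27 in shGFP and of 0.19 in shRxr. Srp72, a subunit of the signal recognition particle, had a change of -0.69 in shCtbp2, of 0.08 in shGFP and of 0.23 in shRxr. Srp54c, whose reads may be shared with near-identical copies, had a change of -0.89 in shCtbp2 and -0.63 in shGFP against 0.58 in shRxr. The transcripts of these 10 genes had a GC content of 40.8% to 46.9%, below the 47.7% median of the 58 tested genes, and the part of GC content in these differences was not tested.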

How the results depend on the processing

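Of 220 counts and medians under another setting, 187 held and 33 moved. A count held if it was equal, 0 against 0 included, or within 1.5 times. A median held if it moved by no more than the typical counting error of a ratio. Of the values for named genes 395 of 403 held, that is kept their direction and side of the threshold, 5 newly passed and 3 turned. The cause was not tested for any of the following. For single pairs of libraries, shares of all genes were not counted under other pseudocounts, minima, scalings or the GC correction. For the RA effect over the lines, the GC and length correction raised 12 genes, and median-of-ratios scaling lowered 1, Tmed5. The correction turned the RA changes of Copg2 (0.25), Tmed1 (-0.24) and Tmed7 (0.42). For RA in shGFP, the count of higher genes was 5 with equal upper quartiles, 6 with the median of ratios and 4 at 2-fold. The count of lower genes there was 1 with a pseudocount of 50, with a minimum mean of 100 and at 2-fold, 4 with equal upper quartiles and 0 with the GC correction, and the median was 0.07 with equal upper quartiles. For RA in shCtbp2, 5 were higher and 9 lower at 2-fold, and 3 were lower with the GC correction. For RA in shRxr, 2 were higher under either other scaling and 1 at 2-fold. In shCtbp2_UT against shGFP_UT 0 were higher with a pseudocount of 50 or a minimum mean of 100, where Copz2 was not tested or fell short. In shCtbp2_RA 16 were higher and 9 lower with equal upper quartiles (median 0.10), 11 were higher with the median of ratios (median 0.00), 6 were lower with the GC correction, and 0 were higher and 5 lower at 2-fold. In shRxr_RA 0 were higher with the GC correction and 1 at 2-fold, and the count of lower genes was 1 with a pseudocount of 50, a minimum mean of 100 or equal upper quartiles and 0 at 2-fold.

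Calls for a knock-down line with a library left out are not given, since some of these fits leave 1 library alone in its arm. Leaving out each library or line in turn gave 1 to 4 genes raised and 0 to 1 lowered by RA. Shares of all genes were not counted for these fits. Only Copz2 was raised without the shGFP line or a library of it. Srp14 was added without the shRxr line (0.94, adjusted p 0.049), and Tmed5 was lowered without that line or a library of it. Of the values for named genes 233 of 267 held, 9 no longer passed, 6 newly passed and 19 turned. The RA change ran from -0.21 to 0.11 for Sec24b, from -0.13 to 0.14 for Copg2, from -0.02 to 0.27 for Tmed1 and from -0.25 to 0.23 for Tmed7. The shRxr difference ran from -0.03 to 0.25 for Copg2, from -0.14 to 0.33 for Ssr1, from -0.31 to 0.06 for Copz1 and from -0.32 to 0.17 for Sec16a. The RA fit already pairs the untreated and RA libraries of each line through its line term. No paired analysis was possible because the labels carry no replicate numbers, beyond that pairing by line.

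With 1 library per group, differences between the lines within a treatment have no replicate check, and leaving out a library removes its line from the RA estimate. At 11.3 to 38.9 normalised reads, the untreated levels of Copz2 had wide counting intervals. The 3 untested genes were too scarce for a comparison.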
